A study of Rattus norvegicus with 14 samples.

Results

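The genes of the BMP, activin and TGF-beta pathway were followed across 7 rat cell lines. Members were chosen by gene name: every probe of the array whose name matched a BMP (Bmp), TGF-beta (Tgfb), inhibin or activin chain (Inha, Inhb), SMAD, activin receptor (Acvr), GDF or ID gene, or Nodal, Lefty, Fst, Nog, Cer1 or Grem. The rule found 58 genes on 82 probes, out of 35508 names on 41012 probes, and no probe by the name Cer1 or Lefty1. Of these members, 51 passed a filter on dim probes, which kept a probe if, in 1 line or more, both arrays read well above background. The 7 that did not pass it, among them Bmp5, Bmp15, Inhbc, Inhbe, Acvr1c and Smad3, were not tested.

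Total RNA was measured on 14 one-colour arrays, an array A and an array B per line. The blastocyst-derived lines were Fi1 (male, Fischer), Fi2 (female, Fischer) and Wk8 (female, Wistar-Kyoto). The bone marrow-derived lines were CL19 (female, Fischer), 3C3 and RMAPC-1 (both male, Fischer). The mesenchymal control was RClone-2 (male, Fischer), which is 1 line, so its own spread between lines is unknown. The submitters describe the 6 blastocyst and bone marrow lines as hypoblast stem cells, and they are called stem cell lines here. The labels do not say whether arrays A and B came from separate cultures, so the line was the replicate. P-values measure the spread between lines of the same origin, and RClone-2 was taken to vary like them. The gap between the origins is not part of the error when the stem cell lines are set against RClone-2.

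Ligands of this family bind pairs of type I and type II receptor kinases, which phosphorylate SMAD proteins that enter the nucleus with SMAD4. BMPs and several GDFs act mainly through SMAD1, SMAD5 and SMAD9, while TGF-betas, activins and Nodal act mainly through SMAD2 and SMAD3. Secreted antagonists such as noggin, gremlin and follistatin keep ligands from their receptors, and ID genes are well-known BMP targets that encode inhibitors of basic helix-loop-helix factors. In the early embryo, Nodal and BMP signals pattern the epiblast and the extraembryonic endoderm, which arises from the hypoblast.

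A level below is the log2 processed signal minus the log2 of the 75th percentile of the same array, and a level of 0 is that percentile. A difference is one level minus another. Levels of different genes are not compared, since probes differ in brightness. Each array had 61.8% to 68.1% of its spots well above background, and its 75th percentile was 558.9 to 891.5 signal units. The labelled cell types were checked on marker lists. Of 8 hypoblast markers, 7 were higher in stem cell lines than in RClone-2, and their summed signal, relative to the percentile, was 344 to 412 in blastocyst lines, 289 to 339 in bone marrow lines and 2.85 in RClone-2. All 5 tested mesenchymal markers were lower in stem cell lines, with sums of 0.617 to 0.733 in blastocyst lines, 1.09 to 1.16 in bone marrow lines and 368 in RClone-2. Lama1 made the largest part of each hypoblast sum in the stem cell lines, so these sums do not rank the origins. None of the 3 blood markers passed the filter: Ptprc was above background on 6 of 14 arrays, Cd34 on 3 and Itgam on 0. Pluripotency factor Pou5f1, epithelial Cdh1 and Epcam, endothelial Pecam1 and trophoblast Eomes were above background on all 12 stem cell arrays and on no RClone-2 array. Stem cell lines differed from RClone-2 by 0.96 for endothelial Kdr, -0.13 for endothelial Cdh5 and -0.32 for trophoblast Cdx2. Sox2 and Gata3 were too dim to test. Arrays A and B of RMAPC-1 differed more than 2-fold for 13 members, against 2 to 6 members in each other line.

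Array probes of members with large differences, and a pair of probes of Inhbb that disagree, are shown as the files give them, 5′ to 3′. For Nog and Id3 the printed probe is not the brightest one, from which the levels below were read. Each is a 60-base oligonucleotide. Positions are those of the files, on the rat build rn4. The Nog probe lies at chr10:77690164-77690223 (minus strand), the Gdf9 probe at chr10:38902923-38902982 (plus), the Nodal probe at chr20:29553374-29553433 (plus), the Tgfb1 probe at chr1:80910123-80910182 (plus) and the Grem1 probe at chr3:99600383-99600442 (minus). The Id3 probe, A_44_P276352, lies at chr5:154934473-154934647 (plus), so its 60 bases span 175 bases of genome with a gap between them. The first Inhbb probe, A_44_P332702, spans 2632 bases with a gap, at chr13:32173603-32176234 (minus). The second, A_44_P288117, lies in 1 block at chr13:32173421-32173480 (minus).
Nog: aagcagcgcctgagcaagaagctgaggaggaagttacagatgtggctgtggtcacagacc
Gdf9: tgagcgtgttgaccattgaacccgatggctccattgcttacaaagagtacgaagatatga
Nodal: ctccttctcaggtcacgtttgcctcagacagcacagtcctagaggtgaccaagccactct
Tgfb1: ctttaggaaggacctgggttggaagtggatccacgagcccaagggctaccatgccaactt
Grem1: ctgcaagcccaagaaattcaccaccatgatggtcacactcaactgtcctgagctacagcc
Id3: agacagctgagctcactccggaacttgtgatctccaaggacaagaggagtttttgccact
Inhbb A_44_P332702: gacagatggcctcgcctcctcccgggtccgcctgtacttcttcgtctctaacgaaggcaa
Inhbb A_44_P288117: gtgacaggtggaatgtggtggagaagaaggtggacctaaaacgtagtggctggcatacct

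The first comparison set the 6 stem cell lines against the mesenchymal control. Noggin, the inhibin alpha chain, Nodal and several BMP and GDF ligands were higher in the stem cell lines. All 3 TGF-beta ligands, gremlin 1, Gdf5, Gdf10 and Id3 were lower. Of the 51 tested members, 19 were higher, 15 were lower and 17 did not pass (limma, adjusted p under 0.05 over all 24871 genes tested). Over all genes, 24.7% were higher and 22.5% lower. The median difference of the members was -0.14, against 0.03 over all genes. In bulk RNA, fewer cells of a type and less RNA per cell cannot be told apart. Of all gene calls 52.4% were higher, a share that was 63.1% with no scaling between arrays and 27.9% with spike-in scaling. Of the members, 12 were higher and 21 lower with spike-in scaling, and 8 were higher and 11 lower with normexp background correction. On every array of the stem cell lines, the 34 members that passed lay on the same side of both arrays of RClone-2. They were picked by a test on these same arrays, and the share over all called genes was not counted. The separation is therefore no further support and not a trait of the members.

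**Figure D1:**
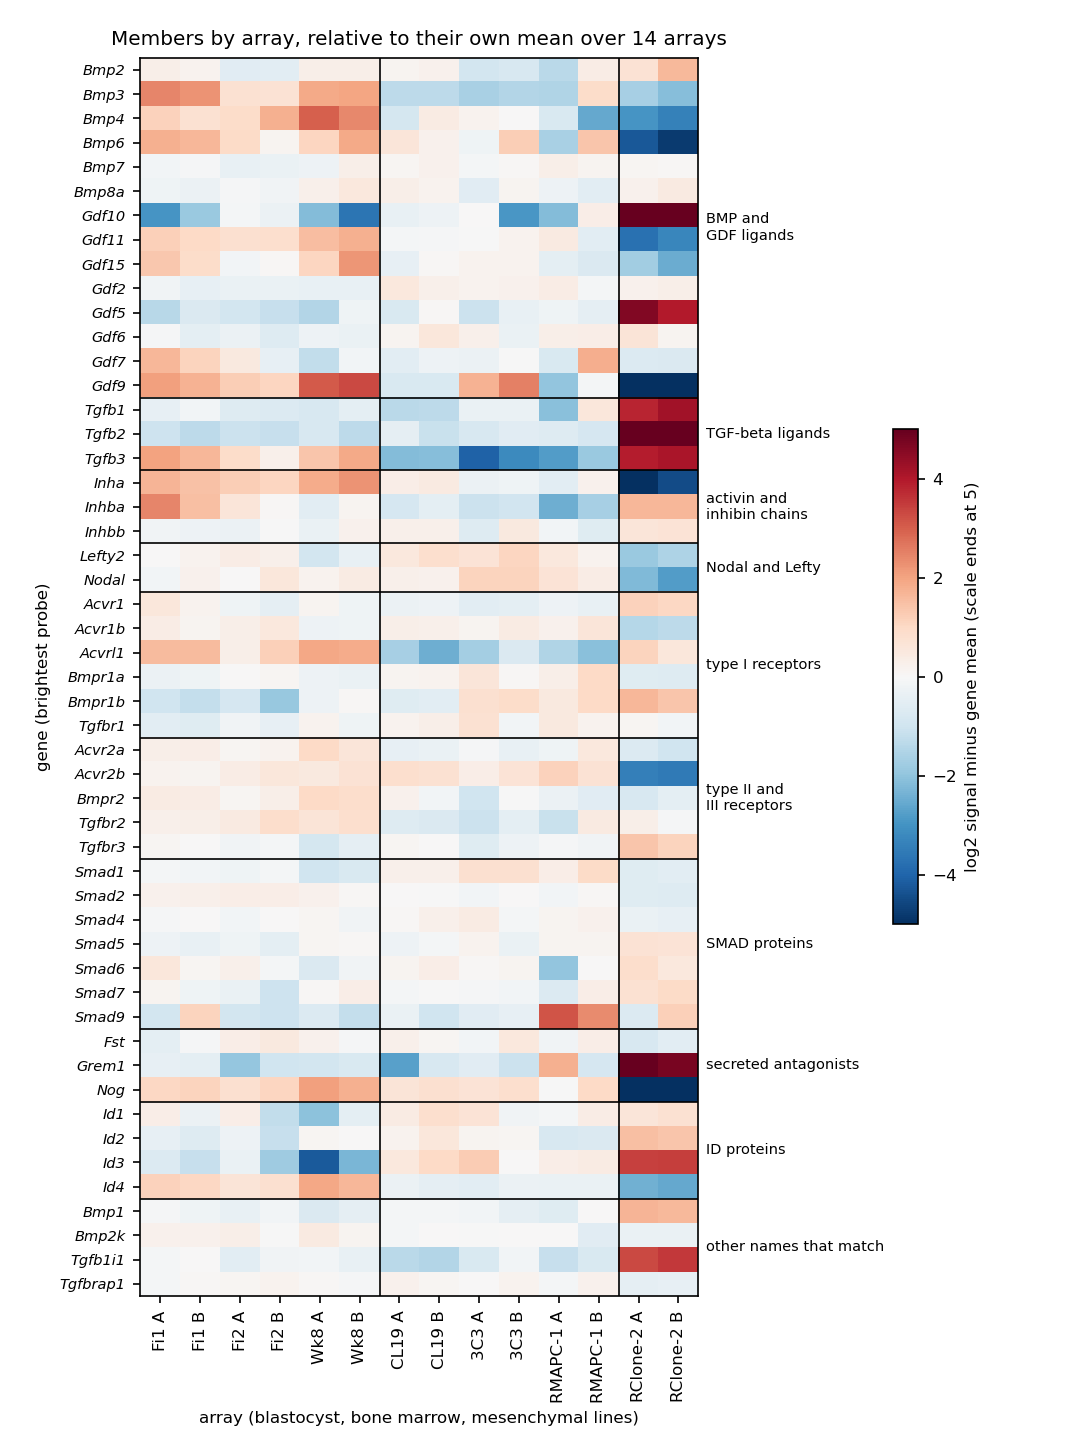
Level of each of the 51 tested members on each of the 14 arrays, minus the member's own mean over the arrays, with red above and blue below that mean and the scale ending at 5. Rows are grouped by role, and columns run from blastocyst through bone marrow lines to RClone-2, whose 2 columns stand apart for the 3 TGF-beta ligands, Gdf9, Gdf10, Grem1 and Nog.

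Among BMP and GDF ligands, 6 of 14 tested (42.9%) were higher and 2 (14.3%) were lower in stem cell lines, against 24.7% and 22.5% of all genes. Gdf9, an oocyte growth factor, had levels of -3.15 to 2.12 (median 0.28) on the 12 stem cell arrays, against -7.24 and -8.33 on the RClone-2 arrays. Bmp6, a BMP ligand, had -5.03 to -1.51 (median -2.39) in stem cell lines, against -7.64 and -8.17 in RClone-2. Both were above background on every stem cell array and on no RClone-2 array, so their folds are lower bounds. A bound sets the mean of the brighter group against the lowest signal called well above background on each array of the dimmer group. The p-value beside a bound was computed on the signals themselves, background included, and does not test the bound. Gdf9 was at least 75.1-fold higher (limma, adjusted p = 0.00433) and Bmp6 at least 12.9-fold higher (adjusted p = 0.00031) in stem cell lines. Bmp4, the ligand that induces mesoderm and germ cells in mice, was at least 2.85-fold higher (adjusted p = 0.0133), with -7.90 to -2.35 on the stem cell arrays and -8.28 and -8.71 in RClone-2. Bmp4 was above background on 9 of the 12 stem cell arrays. Bmp3, a BMP family member that opposes other BMPs, was at least 1.21-fold higher (adjusted p = 0.0393), but it was above background on 7 of 12 stem cell arrays, and the call was lost without Fi1, Wk8 or CL19.

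Gdf11, which patterns the trunk of the embryo, had levels of -0.42 to 1.89 (median 0.73) in stem cell lines, against -3.63 and -3.14 in RClone-2. Its difference was 4.08 ± 0.30 (SE, 6 lines against 1; adjusted p = 0.000156). Gdf15, a stress-response cytokine, lay at -2.04 to 0.88 in stem cell lines and at -3.04 and -3.77 in RClone-2, a difference of 2.45 ± 0.60 (adjusted p = 0.0184). Gdf10 went the other way, with -8.81 to -4.84 (median -6.28) in stem cell lines and 3.04 on both RClone-2 arrays. It was above background on 6 of the 12 stem cell arrays, and its difference was -9.57 ± 0.98 (adjusted p = 0.000601). Gdf5, a joint and cartilage factor, lay at -5.90 to -4.36 in stem cell lines and at 0.19 and -0.47 in RClone-2, a difference of -5.01 ± 0.21 (adjusted p = 1.37e-05). Bmp2 had levels of -1.92 to -0.19 in stem cell lines, against 0.15 and 1.04 in RClone-2, and its difference of -1.36 ± 0.45 missed the threshold (adjusted p = 0.0503). Bmp7, Bmp8a, Gdf2, Gdf6 and Gdf7 did not pass, with differences of -0.46 to 0.82.

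The 3 TGF-beta ligands were lower in stem cell lines. Tgfb1 had levels of -4.20 and -3.91 in Fi1, -4.43 and -4.48 in Fi2, -4.57 and -4.26 in Wk8, -5.15 and -5.10 in CL19, -4.11 and -4.12 in 3C3, -5.89 and -3.24 in RMAPC-1, and 0.01 and 0.39 in RClone-2. All 12 stem cell arrays lay below both mesenchymal ones, 11 of them above background, and the difference was -4.66 ± 0.37 (adjusted p = 0.000211). Tgfb2 was above background in no stem cell line, with -8.75 to -7.89, against -1.45 and -2.26 in RClone-2, and was at least 20.9-fold lower in stem cell lines (adjusted p = 1.65e-06). That p-value rests on background signal in the stem cell lines, and Tgfb2 passed the filter through RClone-2 alone. Tgfb3 had -1.56 and -1.91 in Fi1, -2.66 and -3.30 in Fi2, -2.18 and -1.66 in Wk8, -5.73 and -5.68 in CL19, -7.60 and -6.74 in 3C3, -6.36 and -5.43 in RMAPC-1, and 0.35 and 0.52 in RClone-2. The 3 kinds of line fell into separate ranges for this ligand, with the mesenchymal line highest and the bone marrow lines lowest. Its difference between stem cell and mesenchymal lines was -4.67 ± 0.66 (adjusted p = 0.00231).

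Inha, the inhibin alpha chain, had levels of 0.25 and 0.01 in Fi1, -0.21 and -0.36 in Fi2, 0.42 and 0.81 in Wk8, -1.12 and -0.98 in CL19, -1.72 and -1.67 in 3C3, -1.97 and -1.24 in RMAPC-1, and -6.47 and -5.91 in RClone-2. Every stem cell array lay higher than the mesenchymal ones, of which 1 was above background, and the difference was 5.54 ± 0.38 (adjusted p = 0.000112). Inhba, whose product forms activin A, ranged from -4.95 to -0.07 in stem cell lines and was -0.82 on both RClone-2 arrays, a difference of -1.95 ± 0.84 that did not pass (adjusted p = 0.106). Nodal had -4.26 to -3.00 (median -3.82) in stem cell lines, against -6.34 and -6.93 in RClone-2, where it was not above background. It was at least 6.11-fold higher in stem cell lines (adjusted p = 0.000834). Lefty2, a secreted Nodal antagonist, was at least 1.71-fold higher (adjusted p = 0.00657), with -6.74 to -4.78 in stem cell lines and -7.71 and -7.39 in RClone-2.

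For Inhbb, which encodes the beta B chain of activin B, the result depended on the probe. The brightest probe, A_44_P332702, had levels of 0.48 to 1.60 in stem cell lines and 1.74 and 1.79 in RClone-2, a difference of -0.75 ± 0.24 (adjusted p = 0.0458) that did not pass without Fi1, Fi2, Wk8 or 3C3. Probe A_44_P288117 had -8.09 to -6.51 in stem cell lines, on no array above background, and -1.88 and -2.79 in RClone-2. Probe A_44_P576822, had -7.76 to -5.0 in stem cell lines, above background on 2 of 12 arrays, and 4.61 and 3.74 in RClone-2. With every kept probe tested on its own, A_44_P288117 was at least 15-fold lower in stem cell lines (adjusted p = 3.52e-05). A_44_P576822 was lower too (adjusted p = 4.04e-06), with most of its stem cell levels at background. All 3 probes were lower in stem cell lines, but A_44_P288117 and A_44_P576822 passed the filter through RClone-2 alone. Their direction is therefore no separate support for the call of the brightest probe. Which probe measures the transcript best was not tested.

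**Figure D2:**
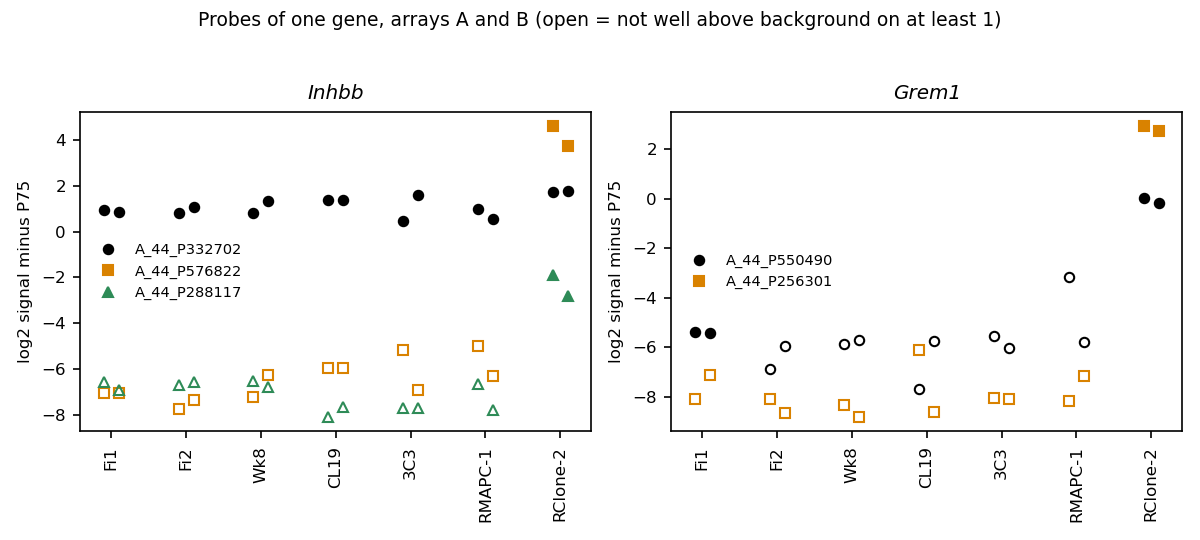
Level of each probe of Inhbb (left) and of Grem1 (right) on arrays A and B of each line, with open symbols where at least 1 array was not well above background. The brightest Inhbb probe lies at 0.48 to 1.60 in the 6 stem cell lines and near 1.7 to 1.8 in RClone-2, while the other probes are well above background on both arrays in RClone-2 only.

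Among type I receptors, Acvr1b, the main activin and Nodal type I receptor, had levels of -4.04 to -3.21 in stem cell lines and -5.23 and -5.10 in RClone-2, a difference of 1.59 ± 0.25 (adjusted p = 0.00327). Bmpr1a, a BMP receptor, was 0.73 ± 0.24 higher (adjusted p = 0.0477), with 1.99 to 3.31 in stem cell lines and 1.71 and 1.67 in RClone-2. Leaving out Fi1, Fi2, Wk8, 3C3 or RMAPC-1 ended that call. Acvr1, a BMP and activin receptor, lay lower in stem cell lines, at -4.32 to -3.23 against -2.63 and -2.75, with a difference of -1.28 ± 0.26 (adjusted p = 0.00976). Acvrl1, Bmpr1b and Tgfbr1 did not pass, with differences of -0.98, -1.79 and 0.04.

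The activin type II receptor Acvr2b had levels of 0.09 to 1.10 (median 0.58) in stem cell lines, against -3.44 and -3.55 in RClone-2. The difference was 4.04 ± 0.24 (adjusted p = 5.83e-05). Acvr2a, its close relative, was 0.96 ± 0.30 higher (adjusted p = 0.04), a call that ended when RMAPC-1, 3C3, CL19 or Fi1 was left out. Tgfbr3, the co-receptor betaglycan, was lower in stem cell lines, at -3.65 to -2.66 against -1.38 and -1.65, with a difference of -1.45 ± 0.31 (adjusted p = 0.0115). Bmpr2 and Tgfbr2 did not pass, with differences of 0.74 and -0.14.

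Of 7 tested SMAD genes, 2 (28.6%) were higher and 2 (28.6%) were lower in stem cell lines, near the 24.7% and 22.5% of all genes. Smad2, a mediator of activin, Nodal and TGF-beta signals, had levels of 1.04 to 1.51 in stem cell lines and 0.58 and 0.51 in RClone-2, a difference of 0.73 ± 0.14 (adjusted p = 0.00722). Smad4, the common partner, was 0.44 ± 0.13 higher (adjusted p = 0.033), with 0.05 to 0.66 in stem cell lines and -0.10 and -0.18 in RClone-2. This small difference turned to -0.07 when arrays were scaled to spike-in transcripts, and the call was lost without Fi1, Fi2, CL19, 3C3 or RMAPC-1. Smad5, a BMP mediator, lay at 1.5 to 2.17 in stem cell lines and at 2.70 and 2.68 in RClone-2, a difference of -0.81 ± 0.22 (adjusted p = 0.0275) that did not pass without Fi1, CL19 or 3C3. Smad7, an inhibitory SMAD, lay at -0.33 to 1.05 in stem cell lines and at 1.49 and 1.67 in RClone-2, a difference of -1.01 ± 0.32 (adjusted p = 0.0433). The Smad7 call ended without RMAPC-1, 3C3, CL19 or Fi1.

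Smad1, Smad6 and Smad9 did not pass between stem cell and mesenchymal lines. Smad1, a BMP mediator, had -0.05 to 1.90 in stem cell lines and 0.35 and 0.40 in RClone-2. Smad6, an inhibitory SMAD, had -2.80 to -0.25 in stem cell lines and 0.05 and -0.30 in RClone-2. Smad9 was above background on the RMAPC-1 arrays only, at -4.61 and -5.41, with -8.96 to -6.58 on the other 12 arrays. Smad3 was above background on no array, at -8.94 to -6.24 in stem cell lines and -7.00 and -6.53 in RClone-2. It was not tested, and neither a difference nor a bound is given for it.

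The secreted antagonists parted in opposite directions. Nog had levels of 1.01 and 1.07 in Fi1, 0.77 and 1.04 in Fi2, 2.02 and 1.74 in Wk8, 0.63 and 0.78 in CL19, 0.65 and 0.82 in 3C3, -0.04 and 0.99 in RMAPC-1, and -5.59 and -6.22 in RClone-2. No stem cell array came near the mesenchymal arrays, and the difference was 6.86 ± 0.36 (adjusted p = 3.95e-05). These levels are of the brightest Nog probe. The printed Nog probe and the second Grem1 probe, given next, passed the filter only through the group where they are higher. They are therefore no separate support. The Nog probe printed above, above background on no RClone-2 array, was at least 68.9-fold higher in stem cell lines (adjusted p = 0.000222 among single probes), and the remaining Nog probe was above background on no array. Grem1 had -7.67 to -3.18 (median -5.76) in stem cell lines, above background on 7 of 12 arrays, and 0.02 and -0.19 in RClone-2. Its difference was -5.68 ± 0.78 (adjusted p = 0.00199), and a second probe, above background on no stem cell array, was at least 542-fold lower in stem cell lines. Fst, which binds activins, was 0.79 ± 0.25 higher in stem cell lines (adjusted p = 0.0443), at 0.45 to 1.46 against 0.11 and 0.38, but not without Wk8, CL19, 3C3 or RMAPC-1.

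The 4 ID genes did not move together. Id3 had levels of 2.37 and 1.93 in Fi1, 2.72 and 1.31 in Fi2, -1.15 and 0.77 in Wk8, 3.59 and 4.08 in CL19, 4.33 and 3.08 in 3C3, 3.41 and 3.5 in RMAPC-1, and 6.47 and 6.53 in RClone-2. The order ran from RClone-2 through the bone marrow to the blastocyst lines without overlap between the 3 kinds, and the arrays of Wk8 lay farthest apart. Id4 had 5.73 and 5.62 in Fi1, 5.23 and 5.38 in Fi2, 6.51 and 6.24 in Wk8, 4.31 and 4.15 in CL19, 4.04 and 4.29 in 3C3, 4.27 and 4.27 in RMAPC-1, and 2.18 and 2.03 in RClone-2. For Id4 that order was turned round, again without overlap. Between stem cell and mesenchymal lines the difference was -4.0 ± 0.84 for Id3 (adjusted p = 0.0103) and 2.90 ± 0.36 for Id4 (adjusted p = 0.00142). Id2 lay at -1.38 to 0.35 in stem cell lines and at 1.31 and 1.16 in RClone-2, a difference of -1.69 ± 0.47 (adjusted p = 0.028) that did not pass without Fi1. Id1 had -0.14 to 2.74 in stem cell lines and 2.49 and 2.67 in RClone-2, and its difference of -0.79 ± 0.45 did not pass (adjusted p = 0.199).

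**Figure D3:**
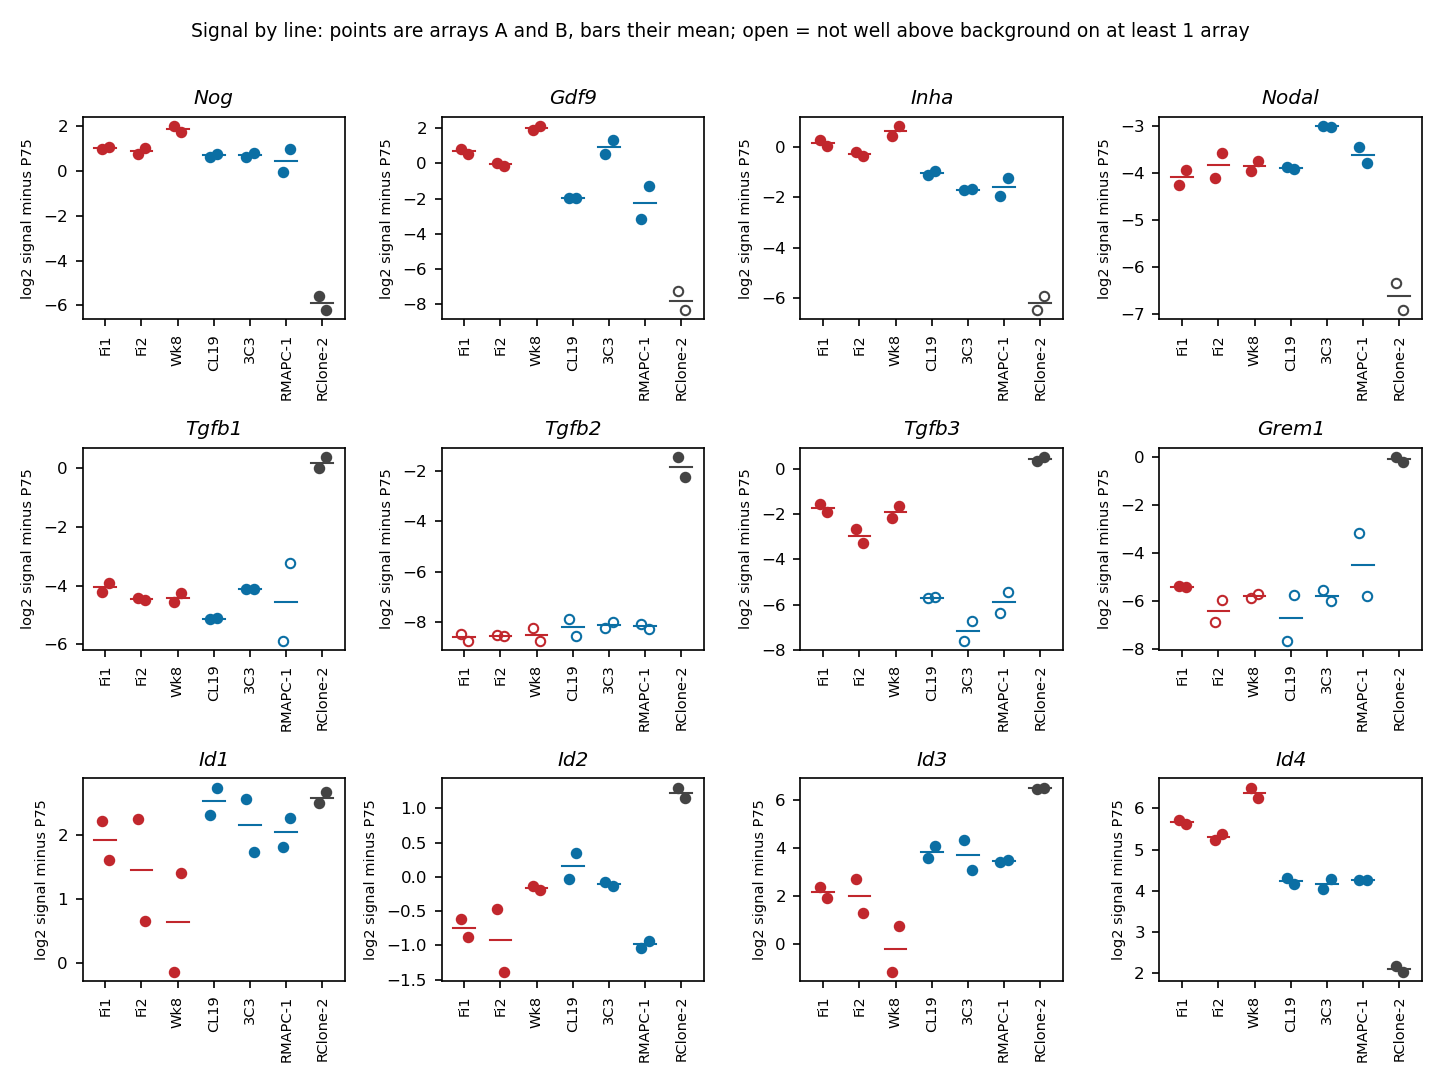
Level of 12 members in each line, with a point for each of arrays A and B, a bar at their mean, and open points where at least 1 array was not well above background. Tgfb3 and Id3 lie highest in RClone-2, Id4 lies highest in the blastocyst lines, and Nog is at or above -0.04 on all 12 stem cell arrays and at or below -5.59 on both RClone-2 arrays.

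Of 4 genes that match the names but encode neither a family ligand nor a receptor, 3 passed. In stem cell lines 1 was higher and 2 were lower, against 24.7% and 22.5% of all genes. Bmp1, a procollagen-processing protease, had levels of 2.69 to 3.42 in stem cell lines and 5.12 and 5.05 in RClone-2, a difference of -1.95 ± 0.21 (adjusted p = 0.00069). Between the origins its brightest probe differed by -0.10 and a second by 1.38 ± 0.21 (adjusted p = 0.00976 among single probes), so the probes disagreed there. Tgfb1i1, a focal adhesion adaptor, differed by -3.98 ± 0.34 (adjusted p = 0.000299). Tgfbrap1, a receptor-associated protein, was 0.50 ± 0.14 higher (adjusted p = 0.0285), a difference that vanished under spike-in scaling and lost its call without Fi1, Fi2, CL19, 3C3 or RMAPC-1.

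The second comparison set the 3 blastocyst lines against the 3 bone marrow lines, the contrast named in the study's design. Tgfb3, Acvrl1, Bmp3, Bmp4, Inha, Id4, Gdf11 and Tgfbr2 were higher in blastocyst lines, and Id3, Smad1, Tgfbr1, Gdf2 and Gdf6 were lower. Tgfb2 was called lower as well (-0.37 ± 0.10), but it was above background on no array of either origin, so that call sets background signals side by side. With it, 8 of 51 members were higher and 6 were lower, against 8.25% and 24.6% of all genes. The median difference was -0.07 for the members and -0.22 for all genes, a shift against which the lower calls of Tgfbr1 (-0.58 ± 0.16), Gdf2 (-0.57 ± 0.11) and Gdf6 (-0.55 ± 0.15) should be read. Of all gene calls, 25.1% were on the higher side. That share was 12.1% with spike-in scaling, 37.5% with quantile normalization, 42% with the percentile taken over probes detected on every array, 40.5% with median centring, 38.9% with normexp and 82.6% with no scaling. The members' own split moved with it: 8 higher and 10 lower with spike-in scaling, 8 and 2 with quantile normalization, 11 and 1 with the percentile over detected probes, 9 and 1 with median centring, 5 and 0 with normexp, and 19 and 0 with no scaling. Most of the lower calls thus depended on the scaling. The signs of the 14 differences held under all of these except for Tgfb2.

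The slides limit this comparison. Blastocyst lines and CL19 were on slides 1 and 3, while 3C3 and RMAPC-1 were on slides 2 and 4 with RClone-2. Within slides 1 and 3, where CL19 is the bone marrow line, all 14 differences kept their sign, and 7 were smaller. The 14 were picked by the comparison over all slides, which holds the same blastocyst arrays and CL19. Kept signs are therefore no separate check on the slides. None passed there after adjustment. With a term for the slide pair 0 members passed after adjustment. In both of these fits 0 of all 24871 genes passed, so the counts of 0 are not particular to the members. Markers moved with this contrast too. Both epithelial markers, Cdh1 and Epcam, were lower in blastocyst lines, with summed signals of 2.37 to 7.12 in blastocyst and 16.8 to 18 in bone marrow lines. The pluripotency factor Pou5f1 was lower as well, by -2.80 ± 0.39 (adjusted p = 0.00839). Of 8 hypoblast markers 3 were lower (Dab2, Foxa2 and Gata6) and Lama1 was higher, and of 5 tested mesenchymal markers Col1a1 and Spp1 were lower, Spp1 below background in both origins. Of 3 endothelial markers Kdr was higher, by 0.63 ± 0.15 (limma, adjusted p = 0.0253). Pecam1 (1.60 ± 0.51, adjusted p = 0.0578) and Cdh5 (-0.15 ± 0.15, adjusted p = 0.479) did not pass. Summed signals of the 3 were 0.28 to 0.759 in blastocyst and 0.142 to 0.228 in bone marrow lines. Pecam1 made the largest part of each sum, so the sums do not bear out the Kdr call. The part of these markers in the results was not tested.

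Tgfb3, with the levels given above, was higher in blastocyst lines by 4.05 ± 0.50 (adjusted p = 0.00674), and by 3.49 against CL19 on the same slides. It was above background on all 6 blastocyst arrays and on 2 of 6 bone marrow arrays. Acvrl1, a type I receptor for BMP9 best known from endothelium, had levels of -2.35 and -2.33 in Fi1, -3.66 and -2.74 in Fi2, -2.01 and -2.08 in Wk8, -5.57 and -6.36 in CL19, -5.62 and -4.64 in 3C3, and -5.45 and -6.04 in RMAPC-1. Every blastocyst array lay above every bone marrow array, by 3.08 ± 0.36 on average (adjusted p = 0.00611), and by 3.44 within slides. Tgfbr2, the type II receptor for TGF-beta, had 0.11 to 0.73 in blastocyst lines and -1.25 to 0.31 in bone marrow lines, where RMAPC-1 gave -1.25 on array A and 0.31 on array B. Its difference was 1.15 ± 0.19 (adjusted p = 0.0114). Tgfb3, Acvrl1 and Tgfbr2 were the 3 of 14 members that passed without any one of the lines.

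The other higher members lost their calls when certain single lines were left out. Calls over all genes fell too, from 2052 higher and 6110 lower to 772 and 2334 without 3C3. Without RMAPC-1 they were 793 and 2303. A lost call thus does not show that a difference came from 1 line. Bmp3 had levels of -5.63 to -3.92 in blastocyst lines and -8.01 to -5.43 in bone marrow lines, where only array B of RMAPC-1 was above background. Its difference was 2.72 ± 0.51 (adjusted p = 0.0154), and it did not pass without 3C3. Bmp4 had -4.60 to -2.35 in blastocyst lines and -7.90 to -4.95 in bone marrow lines, a difference of 2.26 ± 0.62 (adjusted p = 0.0387) that was lost without any one of the 6 lines. Inha was 1.61 ± 0.29 higher (adjusted p = 0.0135) and Gdf11 1.20 ± 0.23 higher (adjusted p = 0.0154), and neither passed without 3C3 or without RMAPC-1. Id4 was 1.56 ± 0.28 higher in blastocyst lines (adjusted p = 0.0132), and did not pass without 3C3.

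Id3 was lower in blastocyst lines by -2.34 ± 0.63 (adjusted p = 0.037), with -1.15 to 2.72 on blastocyst arrays and 3.08 to 4.33 on bone marrow arrays. The groups did not overlap, and the call ended without RMAPC-1, 3C3, CL19 or Fi1. All 3 Id3 probes, the printed one among them, put the lines in the same order. Smad1 had -0.05 to 0.84 in blastocyst lines and 1.21 to 1.90 in bone marrow lines, a difference of -0.95 ± 0.26 (adjusted p = 0.0361) that was lost without Fi1, Fi2, Wk8, 3C3 or RMAPC-1. Tgfbr1, the type I receptor for TGF-beta, had -3.89 to -3.11 in blastocyst lines and -3.44 to -2.55 in bone marrow lines, so that the arrays overlapped (adjusted p = 0.0396). Leaving out any line but Wk8 and RClone-2 ended the Tgfbr1 call. Gdf2, which encodes BMP9, did not pass without Fi1 or 3C3, and Gdf6 did not pass without Fi1, Fi2, Wk8, CL19 or RMAPC-1.

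**Figure D4:**
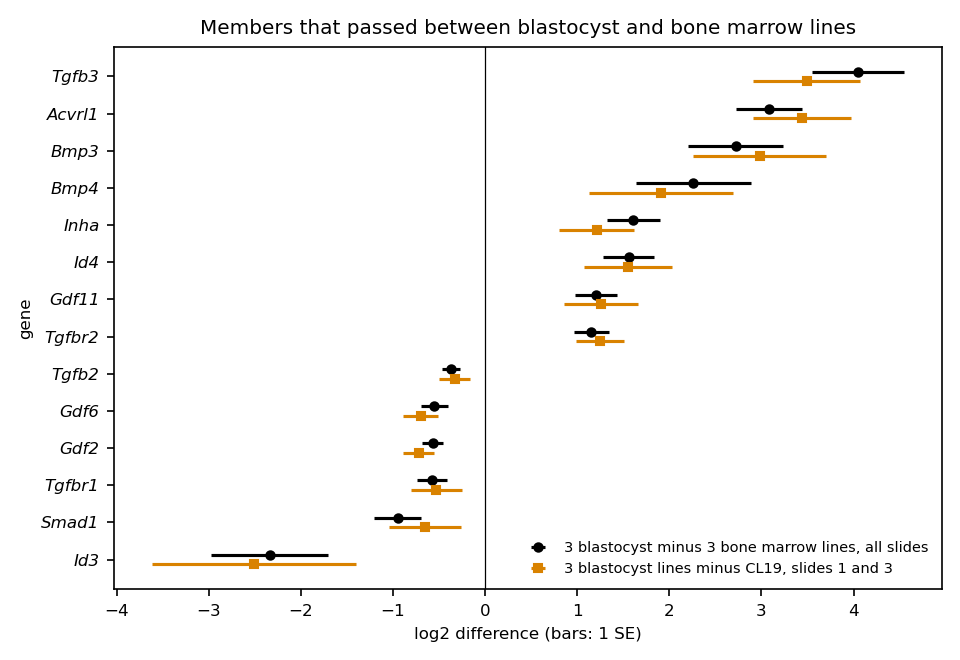
Log2 differences (bars, 1 SE) of the 14 members that passed between blastocyst and bone marrow lines, over all slides (black circles) and against CL19 alone on slides 1 and 3 (orange squares). All 14 pairs lie on the same side of 0, from 4.05 and 3.49 for Tgfb3 to -2.34 and -2.51 for Id3. Both values of a pair share the blastocyst lines and CL19, so they are not independent.

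Several members with wide spreads did not pass between the origins. Inhba had -0.07 and -1.0 in Fi1, -1.91 and -2.45 in Fi2, -3.03 and -2.36 in Wk8, -3.35 and -2.99 in CL19, -3.56 and -3.46 in 3C3, and -4.95 and -4.15 in RMAPC-1. Fi1 was highest, the arrays of the origins overlapped slightly, and the difference of 1.94 ± 0.64 missed the threshold (adjusted p = 0.0624). Gdf9 ranged from -0.13 to 2.12 in blastocyst lines and from -3.15 to 1.34 in bone marrow lines, a difference of 1.96 ± 0.97 (adjusted p = 0.167). Nodal differed by -0.42 ± 0.24 (adjusted p = 0.228) and Id1 by -0.90 ± 0.34 (adjusted p = 0.0915). These misses do not show that the origins are alike for these genes.

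Each origin was also set against RClone-2 alone, so both comparisons share that line. The blastocyst arrays were on slides 1 and 3 and RClone-2 on slides 2 and 4, so the slides limit that comparison too. Fewer of its calls stood with a term for the slide pair, as counted below. In the first comparison, the blastocyst lines and CL19 likewise shared no slide with RClone-2. In blastocyst lines 18 members were higher and 18 lower than in RClone-2, against 22.3% and 26.4% of all genes. In bone marrow lines 16 were higher and 16 lower, against 26.8% and 19.5%. With spike-in scaling the higher share of all gene calls was 21.3% in place of 45.8% for blastocyst lines and 37.6% in place of 57.9% for bone marrow lines, and with no scaling it was 68.1% for blastocyst lines. Acvrl1 differed by 0.56 ± 0.51 in blastocyst lines (adjusted p = 0.394) and by -2.52 ± 0.51 in bone marrow lines (adjusted p = 0.00924). Smad1 was 0.18 ± 0.36 in blastocyst lines (adjusted p = 0.699) and 1.14 ± 0.36 in bone marrow lines (adjusted p = 0.0449), both relative to RClone-2. For these 2 genes the difference between origins itself passed, as given above. Inhba stood at -0.98 ± 0.90 in blastocyst lines (adjusted p = 0.402) and at -2.92 ± 0.90 in bone marrow lines (adjusted p = 0.0407), and Bmp2 at -1.17 ± 0.49 (adjusted p = 0.0916) and -1.56 ± 0.49 (adjusted p = 0.0418). Bmpr1b, a BMP type I receptor, stood at -2.38 ± 0.71 in blastocyst lines (adjusted p = 0.0343) and at -1.19 ± 0.71 in bone marrow lines (adjusted p = 0.217), and Bmpr2 at 1.14 ± 0.35 (adjusted p = 0.0385) and 0.34 ± 0.35 (adjusted p = 0.474). For these 4 genes the difference between origins did not pass. The calls of these 4 and of Smad1 did not all hold when 1 line was left out. Without 3C3 the Inhba, Bmp2, Bmpr2 and Smad1 calls were lost, and without Fi1 the Bmpr1b call was lost. Calls over all genes fell too. For bone marrow lines against RClone-2 they went from 6663 higher and 4841 lower to 5627 and 4281 without 3C3. For blastocyst lines they went from 5555 and 6564 to 5128 and 5963 without 3C3, and to 4754 and 5588 without Fi1.

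**Figure D5:**
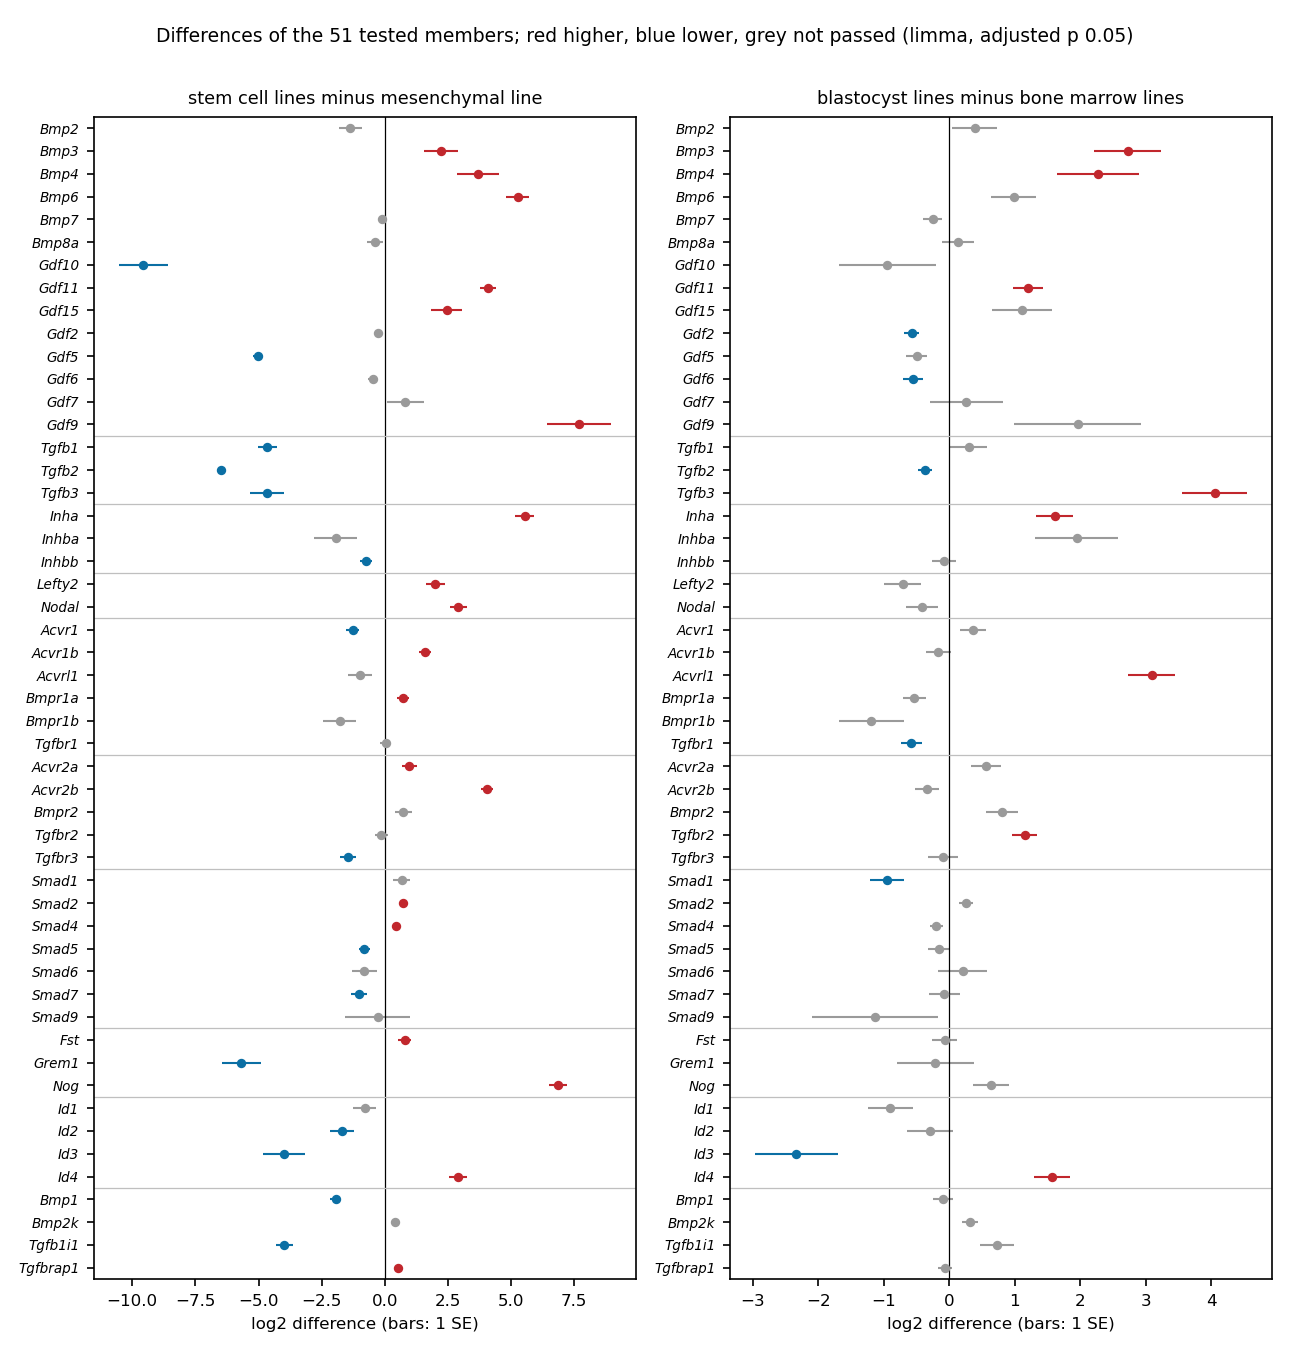
Log2 differences (bars, 1 SE) of the 51 tested members, by role, for stem cell lines minus RClone-2 (left) and blastocyst minus bone marrow lines (right, with a narrower axis), in red where higher, blue where lower and grey where the test was not passed. Points are fitted values, which are no measured sizes on the left for Bmp3, Bmp4, Bmp6, Gdf9, Nodal, Lefty2, Smad9 and Tgfb2, above background on no array of 1 group, nor on the right for Tgfb2 and Smad9; on the right Id3 lies at -2.34 and Tgfb3 at 4.05.

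Other genes of the pathway were read from a list of 59 names, of which 52 had a probe and 47 were tested. Between stem cell and mesenchymal lines 10 were higher and 24 lower, with a median difference of -0.78, against 24.7% higher, 22.5% lower and a median of 0.03 over all genes. Among the largest differences, these genes were lower in stem cell lines: Tgfbi, a TGF-beta-induced matrix protein (-12.48 ± 1.16, adjusted p = 0.000411), Chrdl1, a BMP antagonist (at least 109-fold lower, adjusted p = 1.12e-06), and Fstl1, a secreted follistatin-like protein (-8.59 ± 0.58, adjusted p = 0.000112). So were Ltbp2, a matrix protein of the latent TGF-beta binding protein family (-8.33 ± 0.61, adjusted p = 0.000155), and Zeb2, a SMAD-binding repressor (at least 86.2-fold lower, adjusted p = 1.98e-05). Tgfbi and Fstl1 were above background on 7 of 12 stem cell arrays each, while Chrdl1 and Zeb2 were so on none. Chrdl1 and Zeb2 passed the filter through RClone-2 alone, so their p-values rest on background signal in the stem cell lines.

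Between the origins, 5 of the 47 were higher and 12 lower in blastocyst lines, with a median of -0.03, against 8.25% higher, 24.6% lower and a median of -0.22 over all genes. Pcsk6, a proprotein convertase that processes Nodal, had levels of -8.60 to -3.75 in blastocyst lines and -2.52 to -1.09 in bone marrow lines, a difference of -4.22 ± 0.86 (adjusted p = 0.0181). Cfc1, a Nodal co-receptor, had -5.17 to -4.10 in blastocyst lines and -2.71 to -0.10 in bone marrow lines, a difference of -2.83 ± 0.43 (adjusted p = 0.00979). Gsc, a homeobox target of Nodal, had -5.34 to -4.33 in blastocyst lines and -3.43 to -1.78 in bone marrow lines, a difference of -2.29 ± 0.37 (adjusted p = 0.0107). For these 3 genes no blastocyst array reached the bone marrow range. Zeb1 was higher by 2.65 ± 0.31 (adjusted p = 0.006) and the BMP antagonist Nbl1 by 2.12 ± 0.39 (adjusted p = 0.0143).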

How the data were processed

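One-colour (Cy3) Agilent rat arrays were read with Agilent Feature Extraction 10.7.3.1, per the submitters' processing notes. The deposited processed signal is an intensity, corrected for background within each array by the scanner software and not scaled between arrays, per the file headers. The deposited flags of other kinds (well above background, outlier) are 0 or 1 per spot. The deposited series table holds log2 values whose sorted column values equal the log2 processed signals to within 5.15e-14, and it was not used for tests, since its row IDs could not be matched to probes.

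Control and outlier spots were left out, spots of a probe were averaged, and log2 signals were taken relative to the array's 75th percentile. Each gene was read from its brightest kept probe, by the mean over 14 arrays. Names of 20576 probes came from RefSeq and 20436 kept the file's name. Arrays A and B were averaged by line, and limma 3.58.1 (R 4.3.3) fitted group means of 3, 3 and 1 lines to 24871 genes, with Benjamini-Hochberg adjustment. The number of lines limits the precision. In simulated data, with log2 changes of 1, 2 and 4, the fit recovered 14.9%, 59.7% and 86.4% of changed genes between stem cell and mesenchymal lines, and 34.3%, 73.1% and 90.9% between the origins. Only 66 or 67 of 24871 genes were given each size of change. Far more genes passed in the real data, which makes the adjustment less strict there. These shares therefore do not measure the recovery of the real tests. The members and gene lists were chosen with earlier results of these data known. Every member of the pathway could be named, and of other pathway genes the 6 with the largest called differences in each of the first 2 comparisons, except that some items are not reported here. Alternatives covered scaling, background, filter, probe choice, slides, sex and left-out lines.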

Additional observations from a re-analysis of the deposited data

Results flagged for a closer look

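In 7 of 102 groups of 6 arrays (a member within an origin), 1 array stood apart from the other 5 by Dixon's criterion. Of these 7 distant arrays, 6 were of RMAPC-1. The criterion takes arrays as independent, while each group holds arrays A and B of the same lines, so its chance rate does not apply here. Array B of RMAPC-1 was highest among bone marrow arrays for Bmp3, at -5.43 with the nearest array at -7.66, for Gdf7, at -1.53 with the nearest at -3.38, and for Acvr2a, at -1.78 with the nearest at -2.35. The same array was lowest for Bmp2k, at -1.45 with the nearest at -0.99. Array A of RMAPC-1 was lowest for Smad6, at -2.80 with the nearest at -0.79, and for Nog, at -0.04 with the nearest at 0.63. Array B of Fi1 was highest among blastocyst arrays for Smad9, at -6.67 with the nearest at -8.44, and was not well above background there.

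Signals outside the tests were seen for 2 members. Bmp15 was well above background on array A of Wk8 alone, at -4.36 with the next array at -7.28. Inhbc was well above background on 1 array of Fi2 alone, at -5.99 with the next at -6.35.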

How the results depend on the processing

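Of the members that passed, 32 of 34 (stem cell against mesenchymal), 13 of 14 (blastocyst against bone marrow), 34 of 36 (blastocyst against mesenchymal) and 32 of 32 (bone marrow against mesenchymal) kept their sign under every alternative run, and 14, 0, 14 and 15 passed in all of them. With normexp the counts of members passing were 19, 5, 19 and 19, and tested against a 1.5-fold change they were 21, 2, 20 and 20, in the same order. Between the origins, 14 members became 23 with arrays as observations, 7 with slide as a block, 9 with sex as a covariate, and 0 both with a term for the slide pair and within slides 1 and 3. The slide pair term left 16 of 36 for blastocyst against mesenchymal lines. Leaving out 1 line or array set gave 25 to 32, 4 to 14, 26 to 34 and 23 to 34 members. For the origins these were 7 without Fi1, 7 without 3C3, 6 without RMAPC-1, 4 without the A arrays, 9 without the B arrays and 7 without array A of RMAPC-1. Calls over all genes between the origins moved too. The 2052 higher and 6110 lower became 2851 and 7529 with arrays as observations. They became 760 and 2447 with slide as a block, and 1136 and 3369 with sex as a covariate. These shifts are thus not particular to the members. Array letters did not pair the samples (correlations of deviations -0.24 to 0.18), and with the letter as a replicate block 36, 21, 36 and 35 members passed.

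Some signs turned. With spike-in scaling the stem cell minus mesenchymal difference was -0.065 for Smad4 and -0.002 for Tgfbrap1, and the blastocyst minus mesenchymal one was -0.085 for Bmp2k and -0.169 for Tgfbrap1. Between the origins Tgfb2 was 0.011 with quantile normalization and 0.106 with no scaling, Tgfbrap1 was 0.412 with no scaling, and Bmp1 was 0.608 with the mean of its probes. The cause was not tested. Members near background are limited by signal: 7 of 58 were too dim to test.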
